A study of Mus musculus with 32 samples.

Results

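Tuft cells are rare sensory cells of the intestinal epithelium, and 9 genes that mark them (Dclk1, Trpm5, Avil, Sh2d6, Pou2f3, Gfi1b, Alox5ap, Ptgs1 and Rgs13) were followed by symbol through 32 RNA-seq libraries of sorted mouse crypt cells. All 9 were found among the 50686 genes of the count and log2 TPM tables. The libraries came from C57BL6 mice and formed 8 groups of 4, from 2 sorted populations, 2 genotypes and 2 diets. Intestinal stem cells were sorted as Lgr5-eGFP high and their early progeny, called progenitors, as Lgr5-eGFP low, and both gates also required EpCAM, low or absent CD24, and no CD31, Ter119, CD45 or 7AAD staining. Wild-type mice carried Villin-CreER and Lgr5-GFP-IRES-CreER, and Cpt1a-deficient mice carried Cpt1afl/fl with the same pair of drivers, so that every group held both Cre transgenes and the Lgr5-GFP allele. The diets were labelled High Fat and High Fat Control, and each group was labelled with 2 female and 2 male samples. Villin-CreER acts throughout the gut epithelium, so Cpt1a, which lets long-chain fatty acids enter mitochondria, was not deleted in tuft cells alone, and the Lgr5-GFP allele is known to be active in only part of the crypts. Age, time on the diet, gut region and whether stem and progenitor libraries shared mice are not given in the sources used here. The labels do not say that the 4 samples of a group came from separate animals, so the p-values below measure the spread between these samples, which may be technical. The deposited columns name the group but not the replicate number, so libraries are called a to d within a group as names only. The serial numbers that open the column names run in 4 sets of 8, each with 1 library of every group, and the letters follow these sets. Xist counts exceeded those of the Y-linked gene Ddx3y in libraries a and b of all 8 groups, and were below them in every library c and d.

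Tuft cells carry a tuft of stiff microvilli and sense luminal metabolites and parasites through a cascade shared with taste cells, in which calcium release opens the cation channel Trpm5. They answer with interleukin-25, leukotrienes and prostaglandins, and they depend on the POU-domain transcription factor Pou2f3. Intestinal secretory cells, tuft cells among them, are known to carry more surface CD24 than most crypt cells, and both gates kept the CD24 low or negative cells. In bulk libraries such as these, fewer tuft cells and less RNA per tuft cell cannot be told apart.

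The 9 genes divide by role into regulators, sensing and signalling proteins, cytoskeletal proteins and lipid mediator enzymes, and their positions are those of the GENCODE M21 annotation of GRCm38. Pou2f3 (ENSMUSG00000032015) lies at chr9:43123939-43210369 on the minus strand, and Gfi1b (ENSMUSG00000026815), a zinc-finger repressor, at chr2:28609450-28621982 on the minus strand. Trpm5 (ENSMUSG00000009246) lies at chr7:143069153-143094642 on the minus strand, Rgs13 (ENSMUSG00000051079), a regulator of G-protein signalling, at chr1:144138654-144177372 on the minus strand, and Sh2d6 (ENSMUSG00000052631), an SH2-domain adaptor, at chr6:72513641-72521707 on the minus strand. Avil (ENSMUSG00000025432), which encodes the actin-binding protein advillin, lies at chr10:127000709-127020994 on the plus strand, and Dclk1 (ENSMUSG00000027797), a microtubule-binding kinase, at chr3:55242364-55539068 on the plus strand. Alox5ap (ENSMUSG00000060063), whose product is needed for leukotriene synthesis, lies at chr5:149264767-149288153 on the plus strand, and Ptgs1 (ENSMUSG00000047250), cyclooxygenase-1 of prostaglandin synthesis, at chr2:36230426-36252272 on the plus strand. All 9 are annotated as protein-coding. Exons of 5 of them overlap exons of genes on the other strand, Trpm5 with Tssc4 over 220 bases, Avil with Tsfm over 165 bases, Alox5ap with Gm19719 over 189 bases, Ptgs1 with Gm43621 over 148 bases and Dclk1 with Gm42609 over 87 bases and Gm21954 over 27 bases. The strand setting of the counting is not given in the sources used here, so reads from these stretches cannot be assigned to one gene of each pair.

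The promoters of 4 genes are shown because the results below turn on these genes: the levels of Avil, Rgs13 and Dclk1 varied together across progenitor libraries while that of Ptgs1 was not correlated with them over all 16. Each sequence is the 250 bases before a transcript start in RefSeq (GRCm38.p6), which held entries for 7 of the 9 genes, in 8 windows. Pou2f3 and Alox5ap had no entry. Capitals mark ATGCAAA or its reverse complement TTTGCAT, the first 7 bases of ATGCAAAT, the octamer that POU factors are known to bind. The windows are Avil at chr10:127000459-127000708 (plus), Rgs13 at chr1:144177373-144177622 (minus), the upstream start of Dclk1 at chr3:55242114-55242363 (plus) and Ptgs1 at chr2:36230176-36230425 (plus).
Avil: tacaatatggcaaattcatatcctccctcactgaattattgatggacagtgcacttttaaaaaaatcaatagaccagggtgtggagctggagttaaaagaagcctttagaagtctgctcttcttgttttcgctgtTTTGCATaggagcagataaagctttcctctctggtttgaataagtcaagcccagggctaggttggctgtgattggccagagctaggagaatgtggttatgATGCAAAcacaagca
Rgs13: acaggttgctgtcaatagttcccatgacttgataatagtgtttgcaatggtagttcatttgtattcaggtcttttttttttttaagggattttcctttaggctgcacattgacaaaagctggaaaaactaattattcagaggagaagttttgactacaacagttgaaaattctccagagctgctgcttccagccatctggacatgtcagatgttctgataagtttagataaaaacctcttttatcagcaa
Dclk1: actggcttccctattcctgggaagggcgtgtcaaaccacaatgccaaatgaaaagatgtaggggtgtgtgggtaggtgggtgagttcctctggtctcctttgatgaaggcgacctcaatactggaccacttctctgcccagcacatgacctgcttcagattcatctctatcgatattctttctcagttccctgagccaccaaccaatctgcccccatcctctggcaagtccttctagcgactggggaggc
Ptgs1: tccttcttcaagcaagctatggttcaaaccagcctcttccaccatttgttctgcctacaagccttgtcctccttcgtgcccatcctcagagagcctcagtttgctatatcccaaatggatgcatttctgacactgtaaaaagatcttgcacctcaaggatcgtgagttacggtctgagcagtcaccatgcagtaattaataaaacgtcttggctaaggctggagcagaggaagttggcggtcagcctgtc
Both strands were searched. The whole octamer was in 0 of the 8 windows, and in 1.6% of 32851 promoter windows of the same length. Its first 7 bases, a shorter motif chosen after the windows were looked at, were in 1 of the 8 windows and in 4.12% of all windows. That window was Avil's, where a match began 115 bases and another 15 bases before the start. A match is a description of the letters and says nothing of binding by Pou2f3.

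Library totals ran from 3307711 to 7337425 counts, and all levels below are CPM (a gene's counts relative to the TMM-scaled total of its library) unless TPM is named. Cpt1a ranged over 18.8 to 30.6 CPM in Cpt1a-deficient libraries and 119 to 347 CPM in the wild type, and Lgr5 at 282 to 515 CPM in stem and 11.9 to 85.7 CPM in progenitor libraries. Epcam, the epithelial marker of the sort, stood at 1900 to 2760 CPM. Ptprc, which encodes CD45, did not exceed 0.614 CPM in any library and Pecam1, which encodes CD31, did not exceed 0.979 CPM. Cd24a transcript was present in every library, at 198 to 344 CPM.

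The tuft genes were scarce in both populations and scarcer in stem cells. Summed over the 9 genes, stem libraries held 4.93 to 19.2 CPM with a median of 11.7, from 27 to 126 counts each, and progenitor libraries held 27.1 to 70.5 CPM with a median of 49.9, from 158 to 371 counts each. The lowest progenitor library lay above the highest stem library. Of the 144 stem values (9 genes in 16 libraries), 23 were at 0 counts, against 1 in progenitors. In the plot of all values by group, single genes show such a step without overlap only for Avil, Sh2d6 and Ptgs1.

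**Figure D1:**
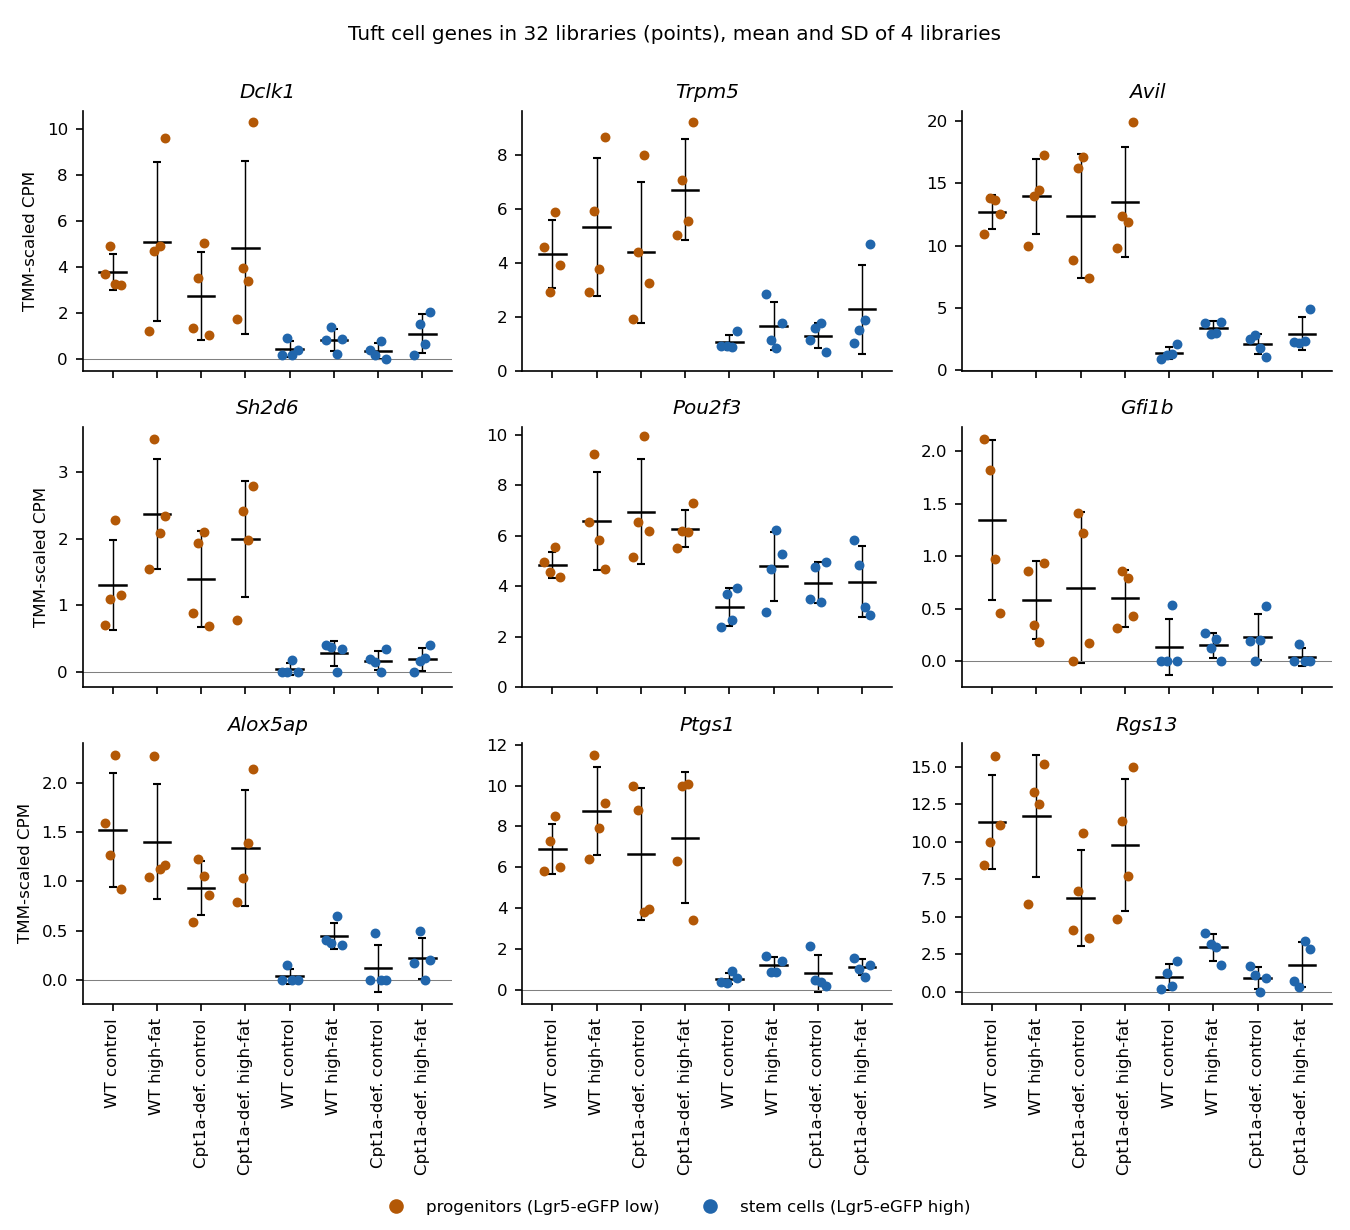
TMM-scaled CPM of the 9 tuft cell genes in each of 32 libraries (points), with the mean and SD of 4 libraries per group, by genotype and diet. Progenitor libraries (orange) stand above stem libraries (blue) without overlap for Avil, Sh2d6 and Ptgs1, while Pou2f3 runs from 2.37 to 6.24 in stem cells and from 4.38 to 9.93 in progenitors.

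Stem cells were compared with progenitors in 1 edgeR quasi-likelihood fit of all 32 libraries. Of the 9 genes, 7 passed the filter on low counts and all 7 were lower in stem cells at an adjusted p under 0.05, in a comparison where 31.0% of the 13088 genes tested were called lower and 63.5% were called in either direction. The median log2 fold change of the 7 was -2.66, against 0.02 over all genes tested. Passing the filter favours genes that are high in one group. Dclk1, Sh2d6 and Ptgs1 did not pass it in the 16 stem libraries alone and entered this fit through the progenitor libraries, so for them a lower value in stem cells was favoured by the filter. The count and the median are therefore descriptions, and they say nothing of the 2 genes that did not pass. The libraries of the populations did not overlap for 3 of the 7 genes tested, against 6.95% of all tested genes that were lower in every stem library. These were Avil, Sh2d6 and Ptgs1, and the last 2 are among those that the filter favoured.

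Among the regulators, Pou2f3 showed the smallest difference of the 7. It ran from 2.37 to 6.24 CPM in stem libraries (median 3.8) and from 4.38 to 9.93 CPM in progenitor libraries (median 6). The 2 ranges overlapped, and the log2 fold change was -0.60 ± 0.13 (SE, adjusted p = 0.000181). By limma on log2 TPM it was smaller, at -0.24 ± 0.1 (SE, adjusted p = 0.0405). Gfi1b reached at most 0.536 CPM in stem and 2.12 CPM in progenitor libraries, with medians of 0.0633 and 0.827, and was below the filter. In a fit without the filter its log2 fold change was -2.40 ± 0.49 (SE, edgeR adjusted p = 6.7e-05).

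For the sensing and signalling genes, Rgs13 ran from 0 to 3.93 CPM in stem libraries (median 1.48) and from 3.61 to 15.7 CPM in progenitor libraries (median 10.3), and was 6.30-fold lower in stem cells (log2 fold change -2.66 ± 0.28, SE, adjusted p = 2.53e-09). Trpm5 ran from 0.708 to 4.71 CPM in stem libraries (median 1.33) and from 1.92 to 9.21 CPM in progenitor libraries (median 4.82), a 3.32-fold difference (log2 fold change -1.73 ± 0.23, SE, adjusted p = 9.47e-08). Below all progenitor libraries lay 15 of 16 stem libraries for Rgs13 and 14 of 16 for Trpm5. Sh2d6 did not exceed 0.409 CPM in any stem library and was at least 0.687 CPM in every progenitor library (log2 fold change -3.29 ± 0.35, SE, adjusted p = 1.53e-09). It had 17 counts over the 16 stem libraries, 6 of which were at 0, so the size of this difference rests on few counts. Sh2d6 entered this fit through the progenitor libraries, so the filter favoured a lower value in stem cells. Of all genes tested, 6.95% were lower without overlap.

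Of the cytoskeletal genes, Avil ran from 0.912 to 4.91 CPM in stem libraries (median 2.28) and from 7.38 to 19.9 CPM in progenitor libraries (median 13.1), a 5.67-fold difference (log2 fold change -2.50 ± 0.16, SE, adjusted p = 1.23e-14). Dclk1 ran from 0 to 2.05 CPM in stem libraries (median 0.511) and from 1.03 to 10.3 CPM in progenitor libraries (median 3.62), a 6.39-fold difference (log2 fold change -2.68 ± 0.36, SE, adjusted p = 1.39e-07). No stem library reached the lowest progenitor library for Avil, as held for 6.95% of all genes tested. For Dclk1, 13 of 16 stem libraries lay below all progenitor libraries. Dclk1 entered this fit through the progenitor libraries, so the filter favoured a lower value in stem cells.

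Of the lipid mediator genes, Ptgs1 ran from 0.177 to 2.13 CPM in stem libraries (median 0.873) and from 3.43 to 11.5 CPM in progenitor libraries (median 7.6), an 8.40-fold difference without overlap (log2 fold change -3.07 ± 0.23, SE, adjusted p = 7.51e-13). Of all genes tested, 6.95% were lower without overlap. Ptgs1 entered this fit through the progenitor libraries, so the filter favoured a lower value in stem cells. Alox5ap ran from 0 to 0.645 CPM in stem libraries and from 0.589 to 2.28 CPM in progenitor libraries, and was below the filter. Without the filter its log2 fold change was -2.79 ± 0.38 (SE, edgeR adjusted p = 8.39e-09). The cyclooxygenase and the leukotriene cofactor therefore had the same direction, the second with few counts behind it.

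Per transcript length, on the TPM scale, the order of the 9 genes differed between populations. Mean TPM in progenitors was 8.87 ± 3.66 (SD, n = 16) for Rgs13, 6.38 ± 1.71 for Avil, 4.31 ± 1.43 for Ptgs1, 3.4 ± 0.932 for Pou2f3, 2.98 ± 1.99 for Alox5ap, 2.93 ± 1.51 for Sh2d6, 2.36 ± 1.22 for Trpm5, 2.18 ± 1.26 for Dclk1 and 1.05 ± 0.898 for Gfi1b. In stem cells Pou2f3 came first at 2.74 ± 0.772 TPM (SD, n = 16), followed by Rgs13 at 1.87 ± 1.43, Avil at 1.64 ± 0.843, Trpm5 at 1.22 ± 0.971, Dclk1 at 0.743 ± 0.642, Ptgs1 at 0.728 ± 0.497, Alox5ap at 0.654 ± 0.766, Sh2d6 at 0.381 ± 0.394 and Gfi1b at 0.144 ± 0.187. The SDs of neighbours in the order overlapped throughout in both populations. Within a library, Avil was above Ptgs1 in 14 of 16 progenitor libraries and Dclk1 above Gfi1b in 15 of 16, while Alox5ap was above Sh2d6 in only 7 of 16.

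The weight of Pou2f3 among the 9 genes followed from these differences. Its share of their summed counts was 36.9% ± 11.2 (SD, n = 16, 14.9% to 57.1%) in stem libraries and 13.1% ± 4.0 (SD, n = 16, 6.78% to 22.8%) in progenitor libraries. This share was computed after the values were seen and is given without a test. The transcription factor of the lineage thus made up more of the few tuft gene counts in stem cells than in progenitors.

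Within single conditions the same comparison called 6 genes lower in wild-type mice on the control diet (22.0% of tested genes), 6 in wild-type mice on the high-fat diet (20.1%), 7 in Cpt1a-deficient mice on the control diet (19.5%) and 6 in Cpt1a-deficient mice on the high-fat diet (17.3%). The gene that did not pass was Pou2f3 in each of the 3 conditions with 6 calls, with adjusted p of 0.0742, 0.136 and 0.0927. Median log2 fold changes of the 7 genes were -3.21, -2.02, -2.70 and -2.21 in that order of conditions, against 0.01 to 0.03 for all genes. Dclk1, Sh2d6 and Ptgs1 entered this fit through the progenitor libraries, so the filter favoured their calls, and these counts and medians are descriptions. The 6 genes called in wild-type mice on the control diet include Sh2d6, which had 1 count in the stem libraries there. Avil differed by -3.21 ± 0.34, -2.02 ± 0.29, -2.57 ± 0.32 and -2.21 ± 0.30 (log2 fold change, SE), as drawn in the plot of differences by condition.

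Single libraries decided some of these values. In Cpt1a-deficient mice on the control diet, Pou2f3 (log2 fold change -0.73 ± 0.25, SE, adjusted p = 0.0237) missed the threshold without stem library a (adjusted p = 0.0656), without stem library c (0.0754) or without progenitor library c (0.124), and on the high-fat diet it passed without stem library a (0.0341). Dclk1 in Cpt1a-deficient mice on the high-fat diet fell from a log2 difference of -2.12 to -1.46 without progenitor library d, and its adjusted p went from 0.0129 to 0.104. Differences that kept their call grew by over 1.5-fold when 1 stem library was left out. In Cpt1a-deficient mice on the control diet, Ptgs1 went from -3.07 to -4.16 without library a, and Dclk1 from -3.00 to -3.78 without library c. In wild-type mice on the control diet, Dclk1 went from -3.09 to -3.85 without library b and Rgs13 from -3.52 to -4.13 without library d. Sh2d6 had 1 count in those 4 stem libraries, all of it in library c, so its fitted difference there depends on that count and is not given. Trpm5 in Cpt1a-deficient mice on the high-fat diet went from -1.57 to -2.18 without library d.

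**Figure D2:**
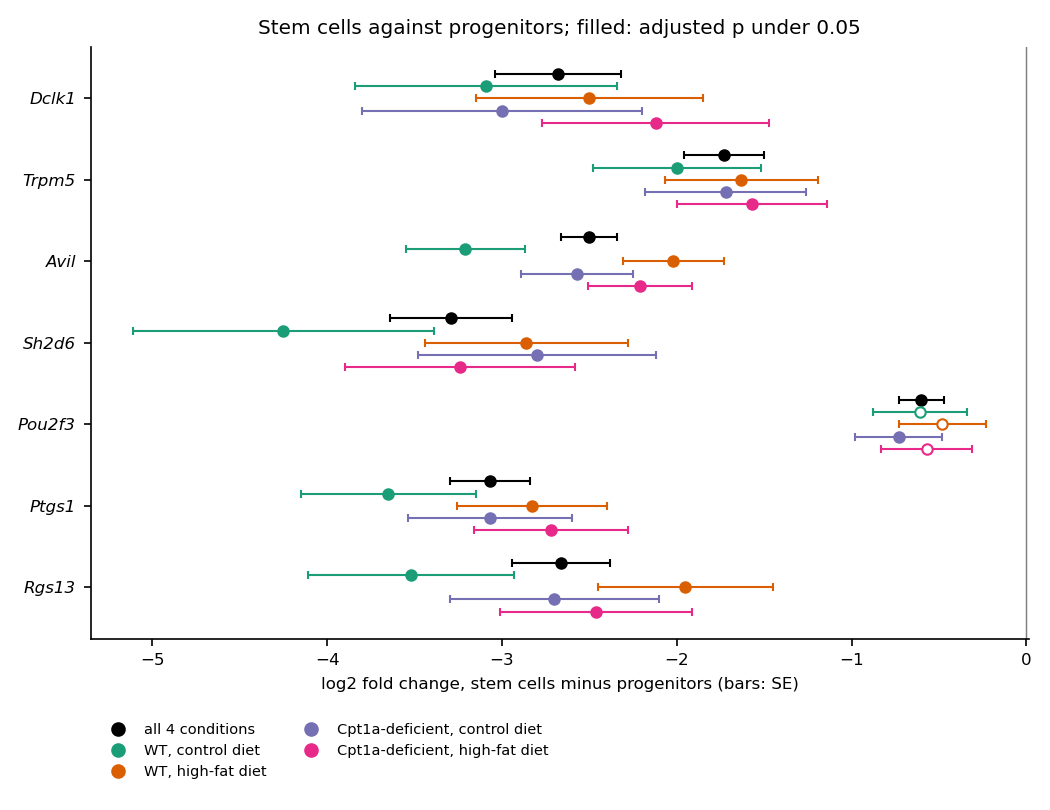
Log2 fold change between stem cells and progenitors (horizontal axis, bars show SE) for the 7 tuft cell genes tested, over all 4 conditions (black) and in each condition, with filled points at an adjusted p under 0.05. All points lie below 0, and Pou2f3, at -0.60 over all conditions, lies nearest to it.

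Markers of the other crypt lineages moved in the same direction between these gates. Lower in stem cells were 15 of 15 enteroendocrine genes (median log2 fold change -4.95), 10 of 10 goblet genes (-4.38), 11 of 11 Paneth genes (-3.08) and 10 of 11 enterocyte genes (-1.63), while 11 of 11 crypt base stem cell genes were higher (1.63). These counts stand beside 31.0% of all tested genes called lower in stem cells and 32.5% called higher. The tuft gene median of -2.66 lay between the medians of the Paneth and enterocyte lists. The filter on low counts favours genes that are high in either population, so these counts and medians are descriptions. Summed goblet markers ran from 260 to 902 CPM in stem libraries and from 9650 to 27200 CPM in progenitor libraries. Kit, whose product CD117 was in the antibody panel, stood at 26.3 to 82 CPM in stem and 71.2 to 170 CPM in progenitor libraries. The part of these cell types in the tuft gene values was not tested.

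Blood cell genes are given because Gfi1b, Ptgs1, Alox5ap and Rgs13 are also used by blood cells. The 8 mast cell genes summed to 26.3 to 82 CPM in stem and 71.6 to 170 CPM in progenitor libraries, nearly all of it Kit, and Cpa3, which defines mast cells, was at 0 counts in all 32 libraries. The 11 platelet and red blood cell genes summed to 1.55 to 11.5 CPM in stem and 0.692 to 13.6 CPM in progenitor libraries, with the platelet gene Pf4 at 0.182 CPM or less, the platelet gene Gp1bb at up to 4.88 CPM and the globin gene Hba-a2 at up to 5.86 CPM. The 15 white blood cell genes summed to 6.98 to 15.7 CPM in stem and 11.4 to 36.9 CPM in progenitor libraries, most of it from Itgam at up to 34.3 CPM. Both of the 2 that passed the filter were lower in stem cells, beside 31.0% of all genes tested. Ptprc, which defines white blood cells, had 12 counts over the 16 stem libraries and 1 count over the 16 progenitor libraries, and 3 of the 15 genes were at 0 in every progenitor library. Their part in the tuft gene values was not tested.

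A wider set of 57 genes tied to tuft cells, in 4 lists by role, behaved less uniformly. Of these, 55 were in the tables and 33 passed the filter, of which 15 were lower in stem cells, 8 were higher and 10 did not pass the test, with a median log2 fold change of -0.19. Of all genes tested, 31.0% were called lower and 32.5% higher, and whether the wider set differs from all genes was not tested. Fewer of these genes passed the filter in the stem libraries alone, so some entered this fit through the progenitor libraries. For those, a lower value in stem cells was favoured by the filter. The median, these counts and those of each list below are therefore descriptions. Each list held genes that many other epithelial cells use, and the plot of list genes shows most values near 0.

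In the adaptor, kinase and cytoskeleton list, 9 of 21 tested genes were lower and 5 were higher, beside 31.0% and 32.5% of all genes. Lrmp, an inositol trisphosphate receptor partner, ran from 0 to 3.66 CPM in stem libraries and from 7.21 to 19.6 CPM in progenitor libraries (log2 fold change -3.60 ± 0.22, SE, adjusted p = 8.95e-15). The adaptor Sh2d7 was lower by a log2 fold change of -3.45 ± 0.32 (SE, adjusted p = 9.21e-11) and the Tec-family kinase Bmx by -2.76 ± 0.24 (2.93e-11). All 16 stem libraries were below all progenitor libraries for Lrmp and for Sh2d7, as held for 6.95% of all genes tested. The 5 higher genes differed less. They were Smpx (log2 fold change 1.19 ± 0.18, SE), Strip2 (0.66 ± 0.16), Nebl (0.46 ± 0.18), Bcl2l14 (0.39 ± 0.06) and Tmem176b (0.17 ± 0.05).

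Among 4 tested transcription regulators, 2 were lower and 1 was higher, beside 31.0% and 32.5% of all genes. Spib, an Ets factor, ran from 0 to 1.08 CPM in stem libraries and from 1.38 to 5.86 CPM in progenitor libraries (log2 fold change -3.30 ± 0.27, SE, adjusted p = 5.2e-12), and the zinc-finger gene Zfp710 differed by -0.22 ± 0.08 (SE, adjusted p = 0.015). Runx1 went the other way, at 8.74 to 17.3 CPM in stem and 1.72 to 5.92 CPM in progenitor libraries (log2 fold change 1.96 ± 0.14, SE, adjusted p = 1.52e-13).

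In the mediator and cytokine list, 4 of 5 tested genes were lower, beside 31.0% of all genes. Il13ra1, a receptor chain for interleukin-13, ran from 60 to 94.8 CPM in stem libraries and from 156 to 244 CPM in progenitor libraries (log2 fold change -1.36 ± 0.06, SE, adjusted p = 4.13e-18). Ltc4s, leukotriene C4 synthase, differed by -0.88 ± 0.23 (SE, adjusted p = 0.00126), the prostaglandin D synthase Hpgds by -0.58 ± 0.20 (0.0117) and the interleukin-4 receptor chain Il4ra by -0.36 ± 0.09 (0.000906). Il25, the cytokine gene of tuft cells, had 1 count in all 32 libraries, and Chat, which makes acetylcholine, had 3 counts in all stem and 6 in all progenitor libraries.

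Of 11 taste-type signalling genes only 3 passed the filter, and 2 of them, the inositol trisphosphate receptors Itpr2 (log2 fold change 0.67 ± 0.13, SE, adjusted p = 3.66e-05) and Itpr3 (0.39 ± 0.10, adjusted p = 0.00166), were higher in stem cells, beside 32.5% of all genes tested. The phospholipase Plcg2 did not pass (-0.19 ± 0.09, SE, adjusted p = 0.0621). Gnat3, the taste G-protein gustducin, had 0 counts in stem and 18 in progenitor libraries, and the succinate receptor Sucnr1 had 0 and 10. The other 8 genes of this list were below the filter and were not tested.

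**Figure D3:**
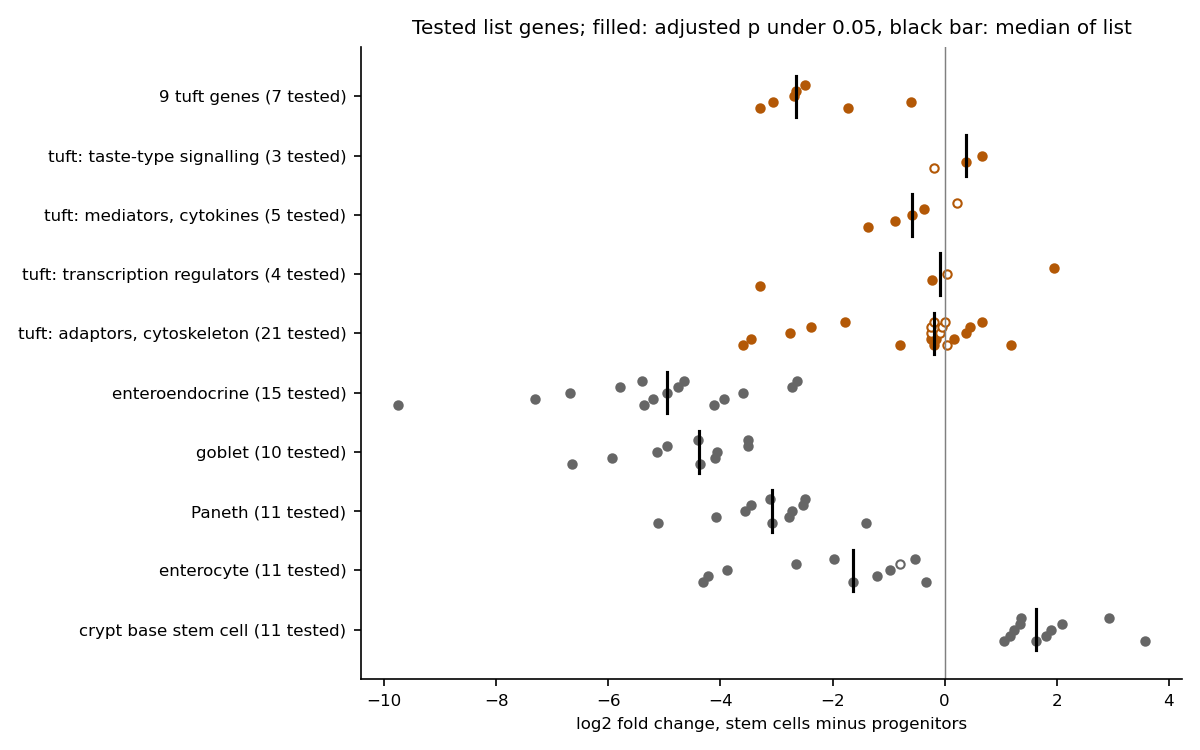
Log2 fold change between stem cells and progenitors (horizontal axis) for each tested gene of the 9 tuft genes, 4 wider tuft lists (orange) and lists of other crypt cell types (grey), with filled points at an adjusted p under 0.05 and a black bar at the list median. The 9 tuft genes have their median at -2.66, the 4 wider lists lie mostly near 0, and the enteroendocrine and goblet lists lie furthest to the left, with medians of -4.95 and -4.38.

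Across the 16 progenitor libraries, after group means were removed, 5 of the tuft genes varied together. Pearson's r between a gene and the mean of the other tested members was 0.93 for Rgs13, 0.90 for Sh2d6, 0.84 for Avil, 0.78 for Dclk1 and 0.74 for Trpm5. It was 0.41 for Pou2f3 and -0.14 for Ptgs1. Dclk1 and Avil had an r of 0.92, whereas the 6 pairs with Ptgs1 ran from -0.28 to 0.16. These values are a description over 16 libraries that share groups, sort and sequencing depth, and no p is attached to them. Library a had the mean of the 7 genes below its group mean in all 4 groups, and library b above it in 3 of 4, so part of the shared variation ran with the sets of the column numbers. With the mean of each set removed too, r with the other members was 0.93 for Rgs13, 0.80 for Sh2d6, 0.78 for Avil, 0.75 for Trpm5, 0.73 for Dclk1, 0.27 for Pou2f3 and -0.30 for Ptgs1, whose 6 pairs ran from -0.64 to 0.

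The values of single libraries show that the 4 groups did not look alike for Ptgs1. In Cpt1a-deficient progenitors on the control diet, libraries a, b, c and d held 1.33, 3.53, 5.05 and 1.03 CPM of Dclk1, 8.84, 16.2, 17.1 and 7.38 CPM of Avil, and 4.13, 6.70, 10.6 and 3.61 CPM of Rgs13. Ptgs1 in the same libraries stood at 10, 8.82, 3.83 and 3.95 CPM. Libraries b and c were the high ones for the first 3 genes, and libraries a and b for Ptgs1. On the high-fat diet, Cpt1a-deficient library d was the highest of its group for Dclk1 (10.3 CPM), Avil (19.9 CPM) and Rgs13 (15 CPM) and the lowest for Ptgs1 (3.43 CPM). In the wild type, Ptgs1 was lowest in the same library as Rgs13. On the control diet, libraries a to d held 5.83, 7.28, 8.49 and 6 CPM of Ptgs1 and 8.48, 10, 15.7 and 11.1 CPM of Rgs13, both lowest in a and highest in c. On the high-fat diet they held 6.39, 11.5, 7.93 and 9.14 CPM of Ptgs1 and 5.87, 13.3, 12.5 and 15.2 CPM of Rgs13, and library a was the lowest for both genes, for Avil (10 CPM) and for Dclk1 (1.21 CPM). The lowest library that Ptgs1 and Rgs13 shared was a in both wild-type groups. Library a had the mean of the tested tuft genes below its group mean in all 4 progenitor groups. The shared lowest library therefore cannot be told apart from the sets of the column numbers. Whether the genotypes differ in this was not tested.

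**Figure D4:**
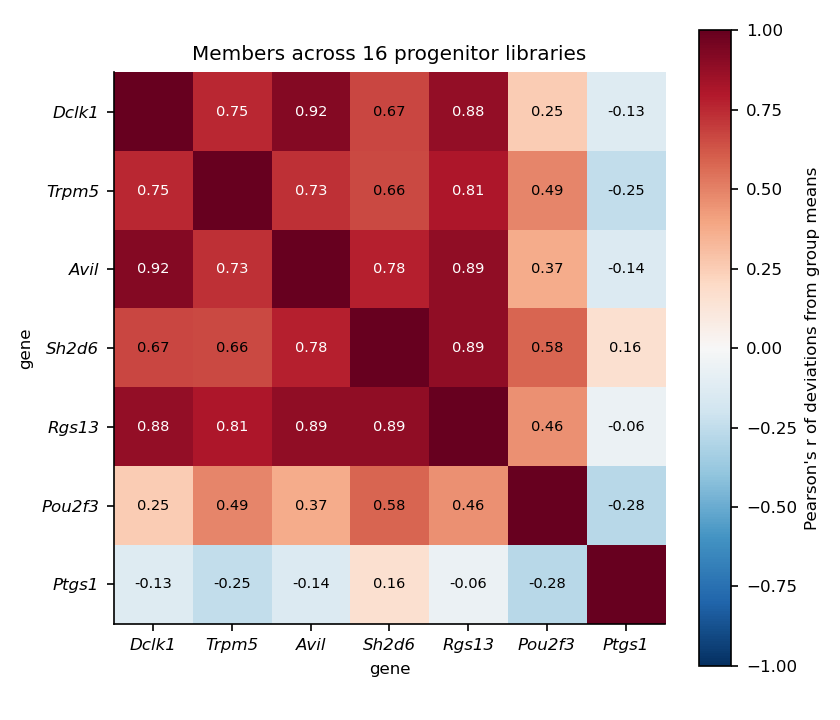
Pearson's r between pairs of the 7 tested tuft cell genes over 16 progenitor libraries, from log2 CPM deviations from group means, on a color scale from -1 (blue) to 1 (red). Dclk1, Trpm5, Avil, Sh2d6 and Rgs13 form a block of high r, up to 0.92, and Ptgs1 has r of -0.28 to 0.16 with every other gene.

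Among 10683 other genes with a mean log2 CPM of at least 2 in progenitors, the 10 whose deviations were most like the mean of the members were Eml4 (r = 0.89), Vldlr (0.88), Ddhd1 (0.88), R3hdml (0.87), Mib1 (0.87), Ncald (0.87), Lrmp (0.86), Btg3 (0.86), Plxnb2 (0.86) and Myo1e (0.86). The 99th percentile of all candidates was 0.76. With the set means removed too, these 10 had r of 0.73 to 0.92 and 2 of them were among the first 10. Of the 10, Lrmp was the one that also stood in a tuft list. Vldlr, R3hdml and Lrmp were lower in stem cells, with log2 fold changes of -1.84 ± 0.18, -2.27 ± 0.25 and -3.60 ± 0.22 (SE), Ncald and Myo1e were higher (0.59 ± 0.06 and 0.47 ± 0.08), and the other 5 did not pass the test.

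The diet comparison asked whether tuft gene levels differed between High Fat and High Fat Control, in each population and genotype. No tuft gene passed an adjusted p under 0.05 in any of the 4 comparisons by edgeR, DESeq2 or limma. The stem cell fits dropped Dclk1, Sh2d6, Gfi1b, Alox5ap and Ptgs1 for low counts, and the progenitor fits dropped Gfi1b and Alox5ap. Genes called among all tested were 0.250% in wild-type stem cells, 0.0645% in Cpt1a-deficient stem cells, 0.0883% in wild-type progenitors and 0.313% in Cpt1a-deficient progenitors.

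Avil gave the lowest p in wild-type stem cells. Its 4 libraries stood at 0.912, 1.23, 1.25 and 2.05 CPM on the control diet and at 3.80, 2.91, 3.01 and 3.87 CPM on the high-fat diet. Every high-fat library lay above every control library. The log2 fold change was 1.31 ± 0.37 (SE), with an unadjusted p of 0.0021 and an adjusted p of 0.146. Rgs13 stood at 0.182, 1.23, 0.357 and 2.05 CPM on the control diet and 3.93, 3.16, 3.01 and 1.76 CPM on the high-fat diet, with overlapping groups (log2 fold change 1.62 ± 0.70, SE, unadjusted p = 0.0335, adjusted p = 0.386). An unadjusted p under 0.05 was reached by these 2 of 4 tested members and by 11.7% of all genes in this comparison.

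Pou2f3 stood at 2.37, 3.68, 2.68 and 3.92 CPM in wild-type stem libraries on the control diet and at 2.98, 4.68, 6.24 and 5.28 CPM on the high-fat diet (a log2 fold change of 0.58 ± 0.29, SE, adjusted p = 0.461). Trpm5 differed by 0.67 ± 0.50 (SE, adjusted p = 0.644). Alox5ap had 0, 1, 0 and 0 counts on the control diet and 3, 3, 3 and 2 counts on the high-fat diet. That is a separation without overlap on 12 counts in all, below the filter. Of the 4 tuft genes tested, only Avil had libraries without overlap, and 3.43% of all genes tested were higher in every high-fat library. That share is over genes that passed the filter, so Alox5ap cannot be set beside it.

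All 4 tested tuft genes had positive values in this comparison, as did 51.1% of all genes, with a median of 0.99 against 0.01 over all genes. The genes were measured in the same libraries, so their signs are not separate observations, and the count and median are descriptions. Their sum with the untested 5 was 4.93 to 10.4 CPM on the control diet and 15.1 to 17.1 CPM on the high-fat diet. Markers of other crypt cell types are given beside it, control diet first. Summed goblet genes stood at 260 to 532 and 773 to 902 CPM, with 10 of 10 positive (median log2 fold change 0.96) and 1 (Klk1) called. Summed enterocyte genes stood at 1110 to 1500 and 1270 to 2100 CPM, with 9 of 11 positive, a median of 1.39 that was above the tuft gene median, and Fabp1 called. Crypt base stem cell genes had mostly negative values, with 1 of 11 positive, sums of 16000 to 18700 and 13800 to 16200 CPM, a median of -0.11 and none called. Paneth and enteroendocrine lists had medians of 0.86 and 0.21, with summed Paneth genes at 227 to 2560 and 1510 to 2710 CPM (Habp2 called), and summed enteroendocrine genes at 6.39 to 45.3 and 21.9 to 77.4 CPM. Their part in the tuft gene values was not tested.

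In the other 3 diet comparisons no tuft gene had an unadjusted p under 0.05. Cpt1a-deficient stem cells had 4 of 4 positive values (median 0.64, 53.0% of all genes positive), with Avil at 2.52, 2.85, 1.79 and 1.06 CPM on the control diet and 2.23, 2.17, 2.32 and 4.91 CPM on the high-fat diet (a log2 fold change of 0.49 ± 0.36, SE, adjusted p = 0.999). Avil values overlapped between these diets, and 1 high-fat library stood apart from the other 3. Summed enterocyte genes in these stem cells stood at 1200 to 1330 CPM on the control diet and 1960 to 2650 CPM on the high-fat diet without overlap (Fabp1 called), goblet genes at 313 to 626 and 544 to 885 CPM, and Paneth genes at 259 to 1650 and 736 to 2430 CPM. Wild-type progenitors had 7 of 7 positive values (median 0.35, 50.5% of all genes positive), the largest in Sh2d6 (0.92 ± 0.48, SE, adjusted p = 0.760), and Cpt1a-deficient progenitors 6 of 7 (median 0.49, 49.6% of all genes positive), the largest in Dclk1 (0.80 ± 0.61, SE, adjusted p = 0.701). Avil in wild-type progenitors stood at 10.9, 13.8, 13.7 and 12.5 CPM on the control diet and 10, 14, 14.5 and 17.3 CPM on the high-fat diet, and the groups overlapped. In wild-type progenitors, summed Paneth genes stood at 6250 to 16100 CPM under the control diet and 14700 to 25400 CPM under the high-fat one, with overlap. In Cpt1a-deficient progenitors they stood at 4010 to 13300 and 14800 to 25900 CPM without overlap, and no gene of the list was called in either. The signs counted here come from genes measured in the same libraries, so they are not separate observations. The part of the other lists in the tuft gene values was not tested. The diet comparisons share no libraries with each other, but they use the same libraries as the genotype comparisons below.

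**Figure D5:**
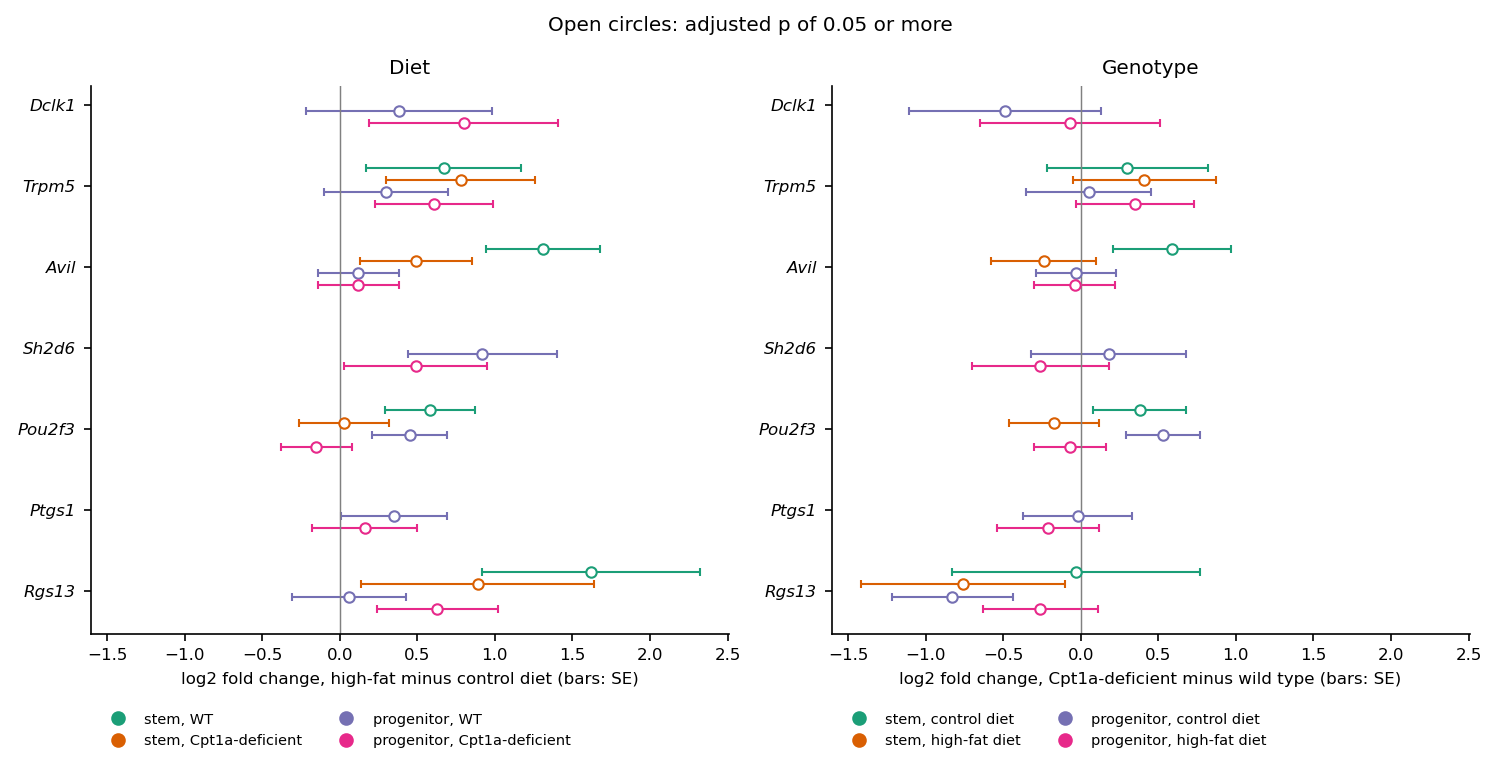
Log2 fold change for high-fat against control diet (left) and for Cpt1a-deficient against wild-type mice (right), with bars for SE, for the tuft cell genes that passed the filter in each population. Open circles mark adjusted p of 0.05 or more, which holds for every point, and the largest values are Rgs13 and Avil in wild-type stem cells at 1.62 and 1.31.

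Genotype was compared on each diet in each population, and again no tuft gene passed by edgeR, DESeq2 or limma, where 0.242% (stem cells, control diet), 0.443% (stem cells, high-fat diet), 0.257% (progenitors, control diet) and 0.706% (progenitors, high-fat diet) of genes were called. An unadjusted p under 0.05 was found for 2 of 7 genes in control-diet progenitors and for 5.80% of all genes there, and for no tuft gene elsewhere. Pou2f3 stood at 4.94, 4.55, 5.55 and 4.38 CPM in wild-type and 5.16, 6.53, 9.93 and 6.18 CPM in Cpt1a-deficient progenitors (log2 fold change 0.53 ± 0.24, SE, edgeR unadjusted p = 0.04, adjusted p = 0.840). Rgs13 stood at 8.48, 10, 15.7 and 11.1 CPM in wild-type and 4.13, 6.70, 10.6 and 3.61 CPM in Cpt1a-deficient progenitors (log2 fold change -0.83 ± 0.39, SE, edgeR unadjusted p = 0.0493, adjusted p = 0.858). The values of the factor and of the signalling gene had opposite signs, and the ranges overlapped for both.

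Medians for the genotype differences were 0.34 and -0.21 in stem cells on the control and high-fat diets, and -0.02 and -0.07 in progenitors, against 0 to 0.01 over all genes. The 6 interaction comparisons (diet by genotype in each population, population by diet in each genotype, and population by genotype on each diet) called no tuft gene and 0.00% of all genes by edgeR. The lowest unadjusted p was 0.0136 for Avil in the population-by-diet comparison of wild-type mice (log2 difference 1.19 ± 0.45, SE, adjusted p = 1), where 3.23% of all genes had an unadjusted p under 0.05. It was the 1 tuft gene under 0.05 in any of the 6. Of the wider tuft genes, the stem cell fits tested 26, the progenitor fits 30 and the population interactions 33, and edgeR called none of them for diet, genotype or interaction. For the members below the filter, 55 fits without the filter or with all 32 libraries gave adjusted p of 0.337 or more in these comparisons.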

How the data were processed

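Single crypt cells were sorted from mouse intestine and polyA RNA was sequenced, 32 libraries in 8 groups. Per the submitters' processing notes, STAR 2.5.3a, RSEM 1.3.0 and SAMtools 1.3 were used with the mm10 build; their settings are not given in the sources used here. The authors deposited expected counts per gene, rounded to whole numbers, and log2 values of TPM plus 1. Ensembl IDs were matched to symbols for 50376 of 50686 genes; genes without a symbol held 0.0677% of counts. Gene positions come from GENCODE M21 and promoters from RefSeq.

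Counts were tested with edgeR 4.0.16 (TMM, filterByExpr with a minimum count of 10, robust quasi-likelihood, Benjamini-Hochberg over all tested genes, threshold 0.05) in R 4.3.3. Population contrasts used a fit of 32 libraries (13088 genes), diet and genotype contrasts a fit of the 16 libraries of one population (12409 genes in stem cells, 12460 in progenitors). Fits were tested on simulated data. Alternatives were DESeq2 1.42.0, RLE factors, no filter, limma 3.58.1 on the deposited log2 TPM, the Xist level as covariate, the column set as a term (added after seeing the data), other sets of libraries, and each library left out. Named genes were the 9 members, up to 4 called genes of each wider tuft list by largest change between populations, the 10 genes most like the members, and Cpt1a, Lgr5, Cd24a, Epcam, Ptprc, Pecam1 and Kit. Pf4 and Cpa3 were named as defining markers, and Il25, Chat, Gnat3, Sucnr1, Plcg2, Klk1, Fabp1, Habp2, Gp1bb, Hba-a2, Itgam, Smpx, Strip2, Nebl, Bcl2l14 and Tmem176b after their values were seen. The members and lists were chosen with earlier results of these data known. Pairs of libraries within a group had Pearson's r of 0.961 to 0.977 over log2 CPM of the tested genes, so none was a copy of another.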

Additional observations from a re-analysis of the deposited data

Results flagged for a closer look

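Within groups of 4 libraries, 10 of 72 sets of 4 values (9 tuft genes in 8 groups) had 1 library far from the other 3, with a gap of over 0.829 of the whole range. Chance gives about 1 set in 20 for normally distributed values, and CPM from few counts need not be so distributed. In 5 of the 10 sets 3 libraries were at 0, so that the gap is the whole range by construction and that rate does not apply. All but 1 of the 10 were in stem cells, where counts were lowest. The largest by counts was Avil in stem cells of Cpt1a-deficient mice on the high-fat diet, with 4.91 CPM (24 counts) in library d against 2.17 to 2.32 CPM in the others. Alox5ap in wild-type progenitors on the high-fat diet was the 1 progenitor case, with 2.27 CPM (13 counts) in library b against 1.04 to 1.17 CPM. Ptgs1 in stem cells of Cpt1a-deficient mice on the control diet stood at 2.13 CPM (11 counts) in library a against 0.177 to 0.475 CPM. Trpm5 in wild-type stem cells on the control diet stood at 1.49 CPM (8 counts) in library d against 0.893 to 0.919 CPM.

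The other 6 rest on 3 counts or fewer. Sh2d6 in wild-type stem cells stood at 0.179 CPM in library c on the control diet against 0 in the others, and at 0 in library c on the high-fat diet against 0.352 to 0.407 CPM. Gfi1b stood at 0.536 CPM in library c of wild-type stem cells on the control diet and at 0.167 CPM in library b of Cpt1a-deficient stem cells on the high-fat diet, each against 0 in the others. Alox5ap stood at 0.153 CPM in library b of wild-type stem cells and at 0.475 CPM in library b of Cpt1a-deficient stem cells on the control diet, each against 0 in the others.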

How the results depend on the processing

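The counts of tuft genes called kept within 1.5 times in every alternative: 7 to 9 over all conditions, 5 to 8, 4 to 6, 5 to 7 and 5 to 7 in the 4 single conditions, and 0 for diet, genotype and interactions. With 1 library left out, they were 7 to 8 over all conditions, 6 to 7 in wild-type mice on either diet, 7 to 8 and 5 to 8 in Cpt1a-deficient mice on the control and high-fat diets, and 0 elsewhere. No called gene changed sign, and uncalled values changed sign in 26 fits, and in 101 with 1 library left out. The likeness list was the exception, with 4 of its 10 genes among the top 10 by Spearman in place of Pearson and 2 with the set means removed. Of 11 called values that missed the threshold, 4 did so with 1 library left out and 6 by limma on log2 TPM. The remaining 1 was Pou2f3 in Cpt1a-deficient mice on the control diet without the filter (edgeR adjusted p = 0.0518). The 6 by limma were values of Pou2f3, Dclk1 and Trpm5. In log2 TPM a pseudocount of 1 understates changes of genes this low. Without it, mean TPM of these genes still differed less between populations than mean CPM. Stem and progenitor means of Pou2f3 were 2.74 and 3.4 TPM, against 4.07 and 6.17 CPM. They were 0.743 and 2.18 TPM for Dclk1 (0.666 and 4.11 CPM), and 1.22 and 2.36 TPM for Trpm5 (1.58 and 5.19 CPM). The same held for Avil (1.64 and 6.38 TPM, 2.43 and 13.1 CPM), and for Sh2d6, Ptgs1 and Rgs13. The size of every fold difference between populations therefore depends on the scale used. Avil under diet in wild-type stem cells kept an adjusted p of 0.0986 to 0.199 over alternatives and 0.174 to 0.32 with 1 library left out. Genes called for that comparison over all genes moved from 31 to 180 by DESeq2, 16 by limma, 56 without the filter, 57 with Xist, 61 in a fit of 32 libraries and 2 with the 8 libraries alone. DESeq2 called 43, 47 and 118 genes for diet in Cpt1a-deficient stem cells, wild-type progenitors and Cpt1a-deficient progenitors (edgeR 8, 11 and 39), and for genotype 60, 106, 83 and 190 (edgeR 30, 55, 32 and 88). No paired analysis was possible because the deposited columns carry no replicate numbers, and for the same reason the Xist level stood in for the labelled sex. A fit with the 4 sets of column serial numbers as a term, added after seeing the data, called the same number of tuft genes in all 19 comparisons, with an adjusted p of 0.106 for Avil under diet in wild-type stem cells. Over all genes it moved the diet calls from 31 to 100 in wild-type stem cells, from 8 to 15 in Cpt1a-deficient stem cells and from 11 to 0 in wild-type progenitors. A stem library held 27 to 126 counts for all 9 genes, and SEs for diet in wild-type stem cells were 0.29 to 0.70 on the log2 scale.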
